A study of Homo sapiens with 4 samples.

Results

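The regions described here are the sites where a FLAG peak and a SMAD3 peak lay on the same stretch of the genome in A549 cells. They were chosen by the overlap of the deposited peak lists: a FLAG peak is included when at least 1 bp of it lies inside a SMAD3 peak, contigs and patches included. Of 9466 FLAG peaks, 241 met this rule (2.55%, Clopper-Pearson 95% interval 2.24 to 2.88%), and they overlapped 243 of 7184 SMAD3 peaks (3.38%, 2.98 to 3.83%). Because the peak calls themselves selected the sites, tag counts, fold enrichments and q values at them are descriptions, and none was tested.

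A549 is an established lung adenocarcinoma line, and all libraries came from A549 cells carrying ATOH8 from a stable retroviral transduction. The groups were a ChIP with FLAG antibody, a ChIP with SMAD3 antibody, and an input without antibody for each, with 1 library per group and 4 in all. No cells without the ATOH8 retrovirus were analysed here, so the lists compare each ChIP with its own input and not ATOH8-carrying with other cells. After duplicate removal the FLAG ChIP held 17133946 tags and the SMAD3 ChIP 16857119. The study sought the targets of both factors in cells overexpressing ATOH8. The FLAG signal is read here as tagged ATOH8, which the labels do not state in words, and they do not say whether the cells were a clone or a pool.

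ATOH8 is a basic helix-loop-helix transcription factor, a family whose dimers bind short E-box sequences. SMAD3 is phosphorylated by activated TGF-beta receptors, enters the nucleus with SMAD4 and binds short DNA elements, usually beside partner transcription factors. A site bound by both would carry ChIP tags of both antibodies well above input. Input tags are themselves uneven along the genome: repeats present in more copies in the cells than in the assembly pile up tags without any antibody. The largest gene-free stretches of human chromosomes in this assembly mostly span centromeres and the satellite repeats around them, which are represented in part by modelled sequence.

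Most shared sites lay in gene-free stretches of 1 Mb or more and few lay in genes. Between annotated genes of all kinds there were 32 stretches of 1 Mb or more, with 209 Mb in total, unsequenced gaps included. They held 177 of the 241 shared FLAG peaks (73.4%) and 2187 of 9225 unshared ones (23.7%). A further 23 shared peaks (9.54%) were on 16 contigs or patch sequences, 21 (8.71%) overlapped an annotated gene, 19 (7.88%) were elsewhere between genes, and 1 was mitochondrial. Where the gene table gives a distance, 157 of 218 shared peaks (72.02%, 65.6 to 77.9%) were over 250 kb from any gene, against 1874 of 8883 unshared FLAG peaks (21.1%, 20.3 to 22.0%). Intervals cover counting error only. Peaks of 1 library are not replicates, so this difference has no test.

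Read the other way, a FLAG peak in a gene-free stretch was shared in 7.49% of cases (177 of 2364, 6.46 to 8.62%) and a FLAG peak in a gene in 0.497% (21 of 4226, 0.308 to 0.759%). For SMAD3 peaks the shares were 19.98% (178 of 891) and 0.551% (21 of 3809). Peaks were also denser around shared sites. Within 100 kb of the summit, a shared FLAG peak had a median of 9 other FLAG peaks and 4 SMAD3 peaks, against 1 and 1 for an unshared FLAG peak. The SMAD3 count of a shared peak includes the SMAD3 peak it overlaps, which the rule requires. The part of this density in the overlap was not tested.

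The stretches with shared sites numbered 21, on as many chromosomes. That on chromosome 5 held the most, 21 shared sites among 184 FLAG and 76 SMAD3 peaks. Those on chromosomes 19 (24179012 to 27681071) and 20 (26251589 to 28580632) held 17 shared sites each, among 172 and 188 FLAG peaks, and that on chromosome 1 (121571889 to 143299517) held 16 among 205. On chromosome 17 (22705637 to 26981691), 6 of only 23 FLAG peaks were shared (26.1%), the largest share among stretches with shared sites. Chromosome 11 had 1 of 46 (2.17%). In the wide stretches of chromosomes 1 and 16 the sites sat towards both ends, and in those of chromosomes 9 and 13 towards 1 end. Chromosomes X and Y had no shared site, with 114 and 6 FLAG peaks and 73 and 7 SMAD3 peaks. Cytogenetic bands and repeat annotation were not used here, so no stretch is assigned a band or a repeat class.

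**Figure D1:**
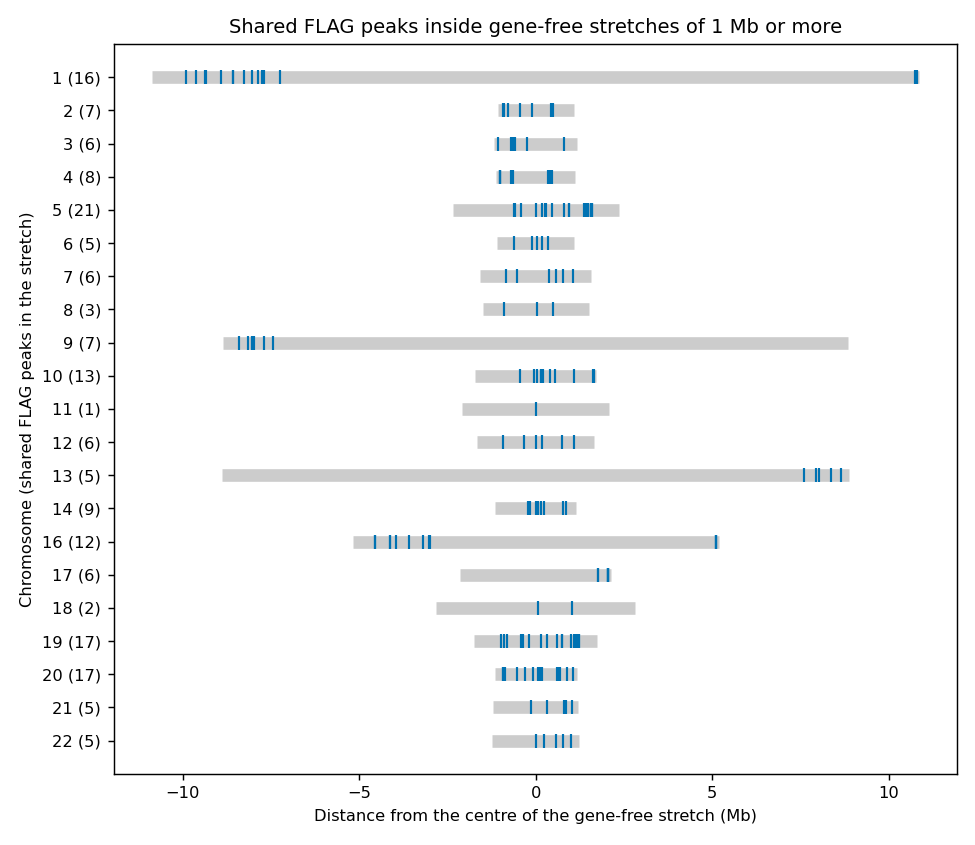
Each grey bar is the gene-free stretch of 1 Mb or more that held shared sites on a chromosome, drawn by distance from its centre in Mb, and each blue tick is 1 shared FLAG peak; the number of ticks stands beside the chromosome. The 177 sites fall in 21 stretches, and those of chromosomes 1, 9, 13 and 16 leave most of a wide bar empty.

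Shared sites also lay close to each other. Of 241, 130 (53.9%, 47.4 to 60.4%) had another shared site within 100 kb and 50 (20.7%) within 10 kb. Having a neighbour is mutual, so the sites are not independent and this interval understates the counting error. Chained at 100 kb, they formed 43 groups of at least 2, and 111 stood alone. The largest group held 10 sites in 235 kb of chromosome 5 (49409531 to 49644157), 752 kb from EMB, the gene of the membrane protein embigin. FLAG pileups there, that is tags over the summit, ran from 26 to 298 with a median of 72.5, and SMAD3 pileups from 19 to 225 with a median of 59. Fold enrichment over local background, the authors' own value for each peak, stayed at or under 3.61 for FLAG and 4.45 for SMAD3, and 7 of the 10 had a q under 0.05 in both. The next held 6 sites within 10811 bp of the unplaced sequence GL000226.1, with FLAG pileups of 74 to 102 and SMAD3 pileups of 41 to 74.

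Groups of 5 stood on chromosomes 9, 10, 14, 19 and 20. That on chromosome 9 lay in IL33 and is described below. Those on chromosomes 10 (40595467 to 40643689, FLAG folds 1.86 to 3.33) and 19 (27028650 to 27146997, 2.63 to 4.55) had a q under 0.05 in both lists at 3 and 4 sites. Those on chromosomes 14 (17217530 to 17433805) and 20 (27478359 to 27605396) had fewer tags, with median FLAG pileups of 13 and 18, and passed that threshold in both lists at 0 and 1 site. Nearby sites in such groups can share a repeat, so they are not independent of each other.

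Pileup in one list followed pileup in the other across shared sites. FLAG pileups ran from 6 to 481 tags (median 25) and SMAD3 pileups from 6 to 402 (median 17), with a Spearman coefficient of 0.954 across 241 sites, which share both libraries. The FLAG pileup was a median of 1.33 times the SMAD3 pileup, with quartiles of 1.15 and 1.54 times. Tag depth and modelled fragment length, 241 bp against 203 bp, give a ratio of 1.21 by themselves. SMAD3 had the higher pileup at 19 sites, among them 4 of the 5 in IL33, and 8 sites were level.

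**Figure D2:**
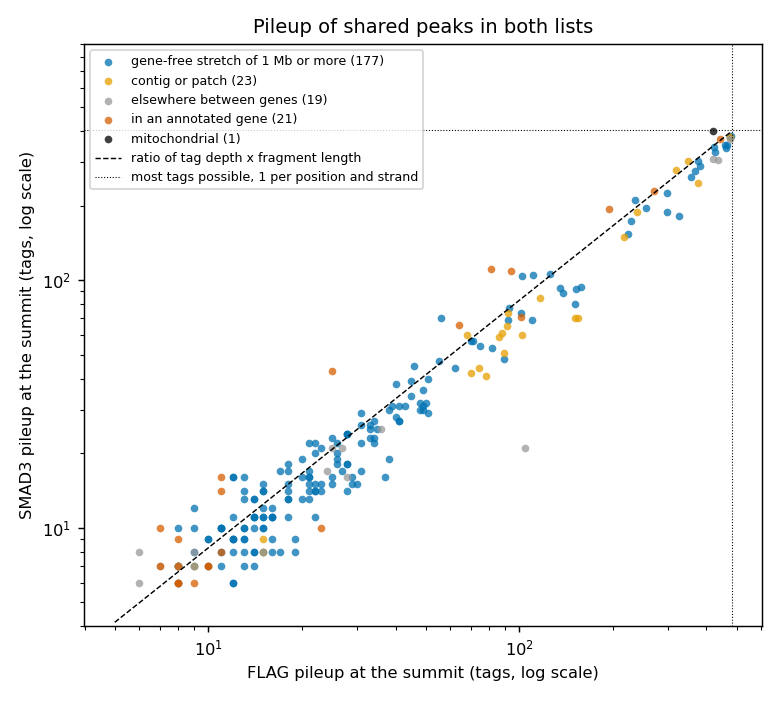
Points are the 241 shared sites, with FLAG pileup on the x axis and SMAD3 pileup on the y axis in tags on log scales, coloured by position. The dashed line is the ratio of 1.21 given by depth and fragment length, and dotted lines mark the ceilings of 482 and 406 tags; sites follow the dashed line from 6 tags up to the ceilings.

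The inputs of both ChIPs were high at the same sites. The input background that the peak caller had used can be computed from pileup and fold, and its values in the 2 lists had a Spearman coefficient of 0.917 across sites. In the FLAG list 110 shared sites had a background under 5 tags, 89 from 5 to 50 and 42 of 50 or more. Among all FLAG peaks of those classes, 1.30% (110 of 8477), 10.7% (89 of 831) and 26.6% (42 of 158) were shared. Sites with a background of 50 or more had median pileups of 308.5 tags for FLAG and 227.5 for SMAD3, but median folds of only 1.89 and 1.55. Sites under 5 had median pileups of 13 and 10 tags and median folds of 3.48 and 3.36. Fold and background are coupled, since the one divides by the other.

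Duplicate removal set an upper limit on the tags at a site. With 1 tag kept per position and strand, at most 482 tags can cover a FLAG summit and 406 a SMAD3 summit, and the highest pileups in the lists were 482 and 402. A scaled FLAG background cannot pass 397 tags by the same count. FLAG peaks of 400 tags or more numbered 31, of which 13 (41.9%) were shared. At the 5 shared sites with the highest FLAG pileup, ChIP and input were both high. The first was on chromosome 16 (46398281 to 46399849), with 481 FLAG and 383 SMAD3 tags and folds of 1.46 and 1.16. The next were at 34582755 to 34583860 of that chromosome (478 and 372 tags), at 46387554 to 46388277 (477 and 378), on the patch sequence ML143380.1 (476 and 379) and at 46386167 to 46386670 of chromosome 16 (465 and 352). Their FLAG folds ran from 1.23 to 1.75. The mitochondrial site (15915 to 16341), which overlaps the tRNA genes TRNT and TRNP, had 421 and 402 tags and folds of 1.18 and 1.14. Its FLAG and SMAD3 summits, at 16183 and 16218, lay beyond both genes, which end at 15953 and 16023.

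**Figure D3:**
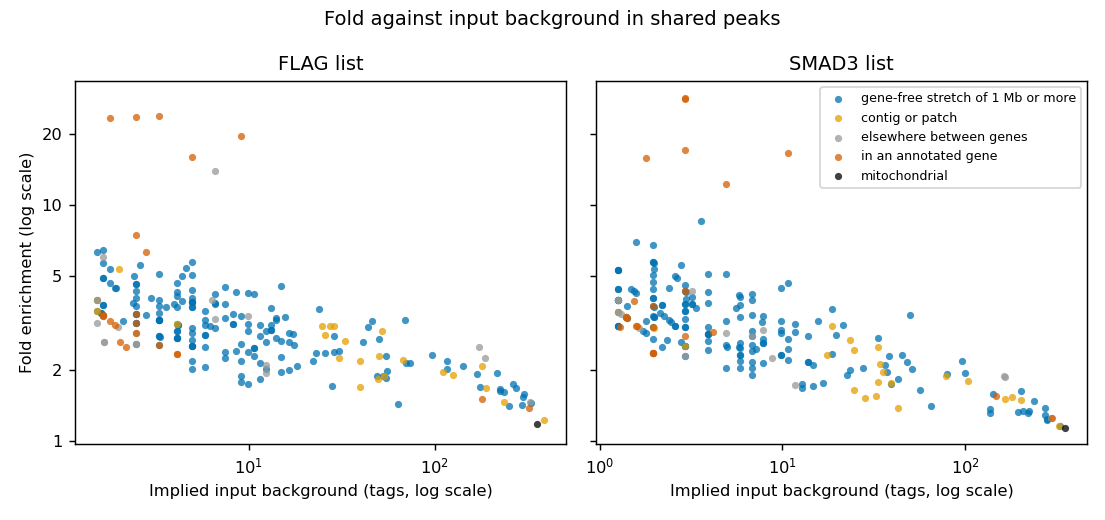
Fold enrichment (y axis, log scale) against implied input background in tags (x axis, log scale) for shared sites, with the FLAG list on the left and the SMAD3 list on the right, coloured by position. Folds above 10 occur at backgrounds under 11 tags, and sites with 50 or more tags of FLAG background stay at FLAG folds of at most 3.26.

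Folds and q values of shared sites are set here beside those of all peaks. A fold of 5 or more was reached by 20 of 241 shared sites in the FLAG list, against 378 of all 9466 FLAG peaks (3.99%). In the SMAD3 list 21 of 241 reached it, against 77 of all 7184 SMAD3 peaks (1.07%). The same sites reached it in both lists in 8 cases. A q under 0.05 was reached by 160 of 241 shared sites in the FLAG list (66.4%), against 25.7% of all FLAG peaks. In the SMAD3 list it was reached by 107 (44.4%), against 7.89% of all SMAD3 peaks. It was reached in both by 91 (37.8%, 31.6 to 44.2%), in FLAG alone by 69, in SMAD3 alone by 16 and in neither by 65. Nothing is read from these shares, since the same peak calls chose the sites. Of the 91, 68 lay in gene-free stretches, 12 on contigs, 7 in genes and 4 elsewhere between genes.

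The overlap rule itself keeps the FLAG and SMAD3 summits of a shared site within the combined width of both peaks. The median distance between the FLAG and SMAD3 summit was 43 bp (95% interval of the median 36 to 50), from 0 to 639 bp. It was at most 50 bp at 137 sites and over 200 bp at 24. The distance fell with background: the median was 69 bp under 5 tags, 37 bp from 5 to 50 and 17 bp at 50 or more. Pileup rose over the same classes, and its part in the distance was not tested. The SMAD3 peak lay wholly inside the FLAG peak at 107 sites and the reverse at 12. Shared FLAG peaks had a median width of 321 bp, against 276 bp for all FLAG peaks, and 9.54% against 32.2% had the minimum width of 241 bp. A wider peak meets the overlap rule more easily, and the part of this in the difference was not tested.

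**Figure D4:**
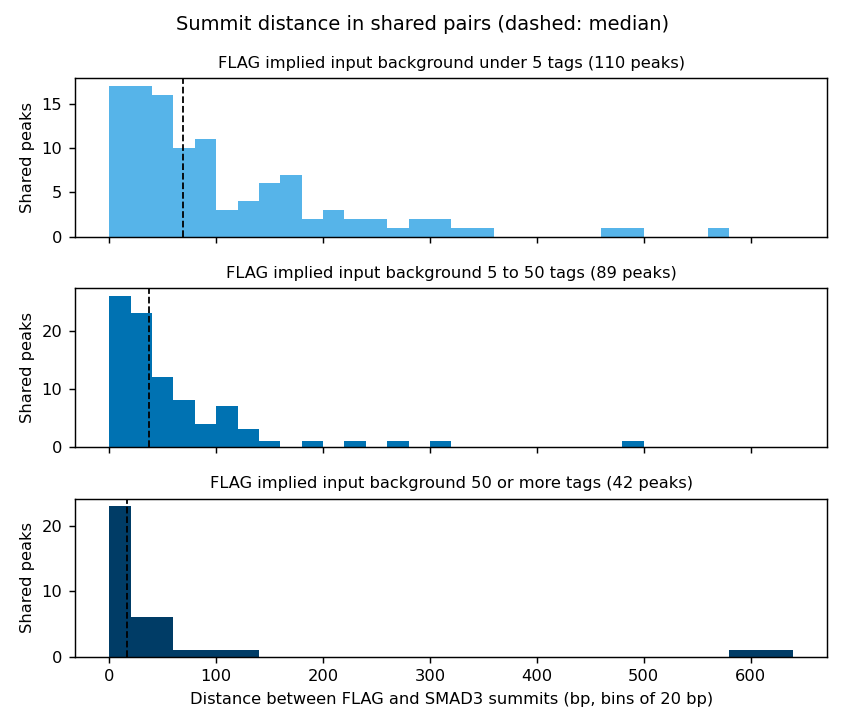
Numbers of shared sites (y axis) by distance between FLAG and SMAD3 summits in bp (x axis, bins of 20 bp), in panels by FLAG implied input background. The dashed medians are 69, 37 and 17 bp from the lowest to the highest background.

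The overlap rule has a sharp edge. The smallest overlaps inside it were 2 bp on chromosome 21 (FLAG peak 11726194 to 11726625, summits 335 bp apart), 6 bp on chromosome 16 (37339560 to 37340030, 486 bp apart) and 9 bp on chromosome 11 (74545080 to 74545320, 161 bp apart). FLAG and SMAD3 pileups there were 14 and 11, 16 and 9, and 8 and 7 tags, with FLAG folds of 2.52, 3.72 and 3.03. The smallest gaps outside it were 6 bp on chromosome 11 (51588897 to 51589147), 34 bp on KI270905.1 and 58 bp on chromosome 1 (161399541 to 161399895), with pileups of 9 and 8, 6 and 5, and 9 and 6 tags, and FLAG folds of 3.95, 2.77 and 3.75. The last of these covers the valine tRNA gene TRV-CAC1-1, and the SMAD3 peak it misses overlaps a neighbouring FLAG peak that is a shared site. In all, 132 FLAG peaks missed the rule by under 1 kb.

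Shared sites in protein-coding genes numbered 18, in 13 genes, and those in IL33 and ALKBH5 had the highest folds. The 5 sites in IL33 and the first in ALKBH5 hold the 6 highest SMAD3 folds among shared sites, and in the FLAG list only the site near LINC02184 (13.9-fold) stands among them. IL33 encodes interleukin-33, a nuclear alarmin cytokine of barrier epithelia. Its gene spans 6215149 to 6257983 of chromosome 9 on the plus strand and overlaps the lncRNA gene LOC107987046 on the other strand, from which ChIP tags cannot be told apart. The 5 shared sites lay in 5977 bp, 14.0% of the gene's length, starting 35183 bp after the gene's first start site and ending 1675 bp before the gene's end. Summits were 651, 1741, 1565 and 1572 bp apart. Exon positions were not used here, so whether the sites in IL33 and ALKBH5 lie on exons was not checked. Whether the tags at these sites come from binding was not tested.

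In order along IL33, the site at 6250332 to 6250743 had 81 FLAG and 111 SMAD3 tags, and folds of 23.6 and 28.4. The site at 6250992 to 6251409 had 94 and 109 tags, with folds of 15.98 and 27.9. That at 6252715 to 6253117 had 64 and 66 tags, with folds of 23.3 and 17.0. SMAD3 tags were the more numerous at all 3, on input backgrounds of under 5 tags in both lists. The site at 6254305 to 6254709 was the weakest, with 25 and 43 tags and folds of 7.49 and 15.8. The site at 6255822 to 6256308 had the most tags, 195 and 194, and folds of 19.5 and 16.6, on input backgrounds of 9.07 and 10.8 tags. Summed over the 5, there were 459 FLAG and 523 SMAD3 tags at the summits. FLAG and SMAD3 summits were 2 to 16 bp apart, and each site was 403 to 487 bp wide in the FLAG list. A sixth SMAD3 peak in the gene, at 6241576 to 6241897 (30 tags, 7.87-fold), had no FLAG counterpart.

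ALKBH5 encodes an RNA demethylase that removes N6-methyladenosine. Its stronger site, at 18184141 to 18185065 of chromosome 17, began 313 bp after the gene's start site on the plus strand and had the highest FLAG fold of any shared site, 23.7, with 101 tags. The SMAD3 peak there had 71 tags and a fold of 12.2, and summits were 81 bp apart. The second, at 18206795 to 18207035, lay 2919 bp before the gene's end. It had 11 FLAG and 16 SMAD3 tags, folds of 2.34 and 4.32, and passed a q of 0.05 in the SMAD3 list only.

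ATOH8 itself held a shared site from 266 to 910 bp after its start site (chromosome 2, 85754257 to 85754901). It had 442 FLAG and 371 SMAD3 tags, with summits 7 bp apart, on input backgrounds of 321 and 297 tags. Folds were 1.38 and 1.25, and the −log10 q was 5.79 for FLAG and 0.582 for SMAD3. These cells carry ATOH8 on a retrovirus as well as in the genome, and tags from the copies cannot be told apart in the lists.

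EEF1A1 encodes translation elongation factor 1 alpha. Its site was wide, from 73520114 to 73521187 of chromosome 6, and covered the start site of this minus-strand gene. It had 23 FLAG tags (6.35-fold) and 10 SMAD3 tags (3.72-fold, −log10 q of 0.708), and summits were 575 bp apart. EEF1A1 has processed pseudogenes of similar sequence. Whether they match the sequence under this site, part of which lies upstream of the start site, was not checked. Its promoter is shown because it is the shared site that covers a start site with a q under 0.05 in the FLAG list. The sequence is the 250 bases upstream of the start site on the minus strand, chr6:73521033-73521282 of GRCh38.p14, from RefSeq. The FLAG peak covers the 155 bases nearest the start site and the SMAD3 peak 195. Capitals mark the single E-box, searched as CANNTG, which reads the same on both strands.

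EEF1A1: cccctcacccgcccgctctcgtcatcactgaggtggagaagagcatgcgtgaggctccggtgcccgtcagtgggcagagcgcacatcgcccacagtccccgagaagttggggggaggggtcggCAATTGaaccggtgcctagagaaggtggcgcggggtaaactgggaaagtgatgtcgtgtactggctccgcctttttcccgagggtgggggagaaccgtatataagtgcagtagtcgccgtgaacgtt

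An E-box of those letters stood in 61.8% of 34943 annotated promoters of this length. The SMAD element CAGAC, searched on both strands, was not in the EEF1A1 window and stood in 38.0% of promoters. The palindrome GTCTAGAC, which was not in it either, stood in 0.183%. The other promoter overlapped by a shared site was that of PIAS1, a SUMO ligase of the protein inhibitor of activated STAT family, where none of the 3 motifs was found upstream of its second start site. Only its FLAG peak reached that window, with 51 bases, while the SMAD3 peak began downstream of the start site. A match is a run of letters and no evidence of binding.

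The other 9 protein-coding sites had few tags, 7 to 11 for FLAG and 6 to 10 for SMAD3. Folds ran from 2.34 to 3.42 and from 2.37 to 3.92. No q was under 0.05 in either list, and summits were 15 to 306 bp apart with a median of 220 bp. They lay in KCNMA1 and RYR3, genes of a potassium channel and a ryanodine receptor, in PIAS1, in the zinc finger gene ZNF347, in the protein kinase gene NIM1K, in the read-through gene RNF103-CHMP3, and in GOLGA8A, GTF2IRD2 and SPATA31D3. The last 3 belong to families of near-identical copies, where tag placement is uncertain. At PIAS1 (68054525 to 68054917 of chromosome 15) there were 10 FLAG and 7 SMAD3 tags. The lowest pileup of any peak was 5 tags for FLAG and 5 for SMAD3.

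**Figure D5:**
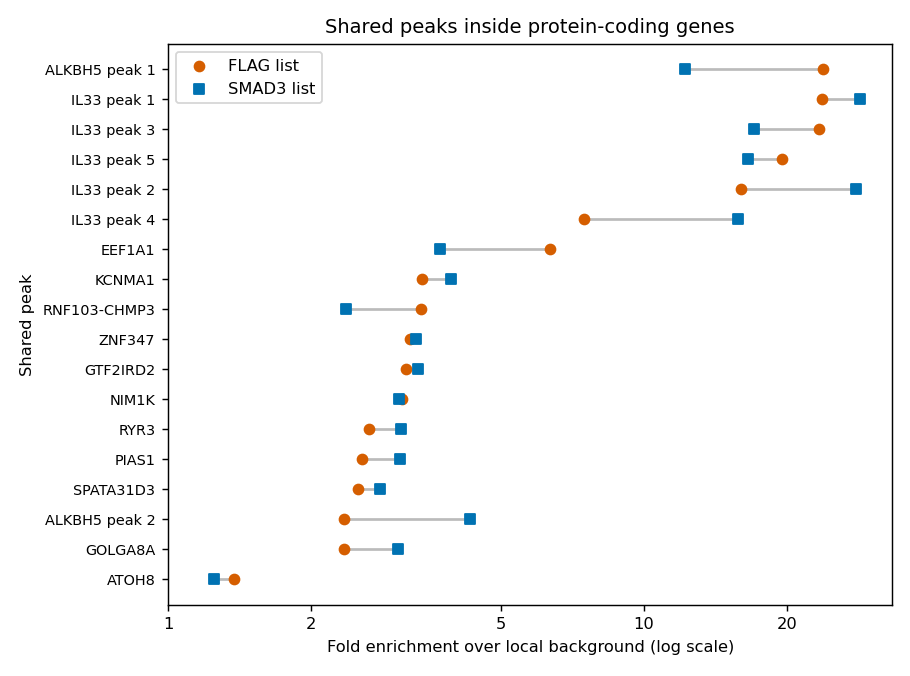
Fold enrichment over local background (x axis, log scale) in the FLAG list (circles) and SMAD3 list (squares) for the 18 shared sites inside protein-coding genes, joined by a line for each site; numbered peaks of a gene run by increasing coordinate. The IL33 sites and the first ALKBH5 site lie at 7.49-fold or more in both lists, and the remaining sites at 6.35-fold or less.

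Of the pathway lists, only that of TGF-beta, BMP and SMAD signalling had genes with shared sites. In or within 10 kb of a gene, 2 of 50 genes of TGF-beta, BMP and SMAD signalling had one, ATOH8 and PIAS1, with the values above. None of 50 cell cycle genes did. Over all protein-coding genes the count was 18 of 20033 (0.0899%). With so few such genes, and with ATOH8 the gene carried on the retrovirus, nothing is read from the counts of either list. The site in ATOH8 had the high input background given above, and that in PIAS1 had no q under 0.05.

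Shared sites in or within 250 kb of a gene with a q under 0.05 in both lists numbered 17, of which 9 had a FLAG background of 50 tags or more and 7 lay in gene-free stretches. Beside IL33 and ALKBH5, they were 2 sites of chromosome 16 near LOC102724523 (34576161 to 34576655 with 421 and 309 tags, 34592556 to 34592968 with 435 and 307), 2 near ANKRD26P1 given above, and 3 of chromosome 4 near SNX18P25 (49709310 to 49711817, FLAG tags 111 to 236). Single sites lay near LOC100422478 (chromosome 17, 367 and 277 tags), in LOC112268408 (chromosome 18, 272 and 230 tags), near the pseudogene IGKV1OR2-2 (chromosome 2, 23 and 14 tags) and near LOC101930420 (chromosome 3, 36 and 25 tags). FLAG folds of these 11 ran from 1.52 to 4.04.

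In gene-free stretches the highest SMAD3 fold was on chromosome 4 (51107243 to 51107483), at 8.52 with 38 tags, where the FLAG peak had 40 tags and a fold of 2.73. It was followed by a site of chromosome 13 (17247047 to 17247305, 17 tags in each list, 6.95-fold in SMAD3 and 3.03-fold in FLAG) and one of chromosome 5 (47431073 to 47431313, 19 SMAD3 and 20 FLAG tags, 6.76- and 3.10-fold). The next SMAD3 fold, 5.75 with 16 tags, was shared by a site of chromosome 19 (25042635 to 25042890, 12 FLAG tags, 3.74-fold) and one of chromosome 2 (93612234 to 93612474, 13 FLAG tags, 2.73-fold). At the first 3 sites the pileups of the ChIPs were within 2 tags of each other, and the input background was 3.58, 1.59 and 1.96 tags in the SMAD3 list against 14.0, 4.95 and 5.77 in the FLAG list. For FLAG the highest folds in a stretch were 6.42 on chromosome 7 (58911583 to 58911992, 16 FLAG and 8 SMAD3 tags) and 6.33 on chromosome 2 (93557051 to 93557330, 15 and 11 tags). The site with the most unequal pileups was on chromosome 16, 253 kb from LINC02184 (34725574 to 34726092). It had 104 FLAG tags at 13.9-fold and 21 SMAD3 tags at 2.80-fold, 4.95 times as many FLAG as SMAD3 tags.

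Shared sites between genes outside the stretches included 9 with under 10 FLAG tags on a background under 5. They had 6 to 9 FLAG and 6 to 8 SMAD3 tags, with folds of 2.59 to 3.95 and 2.29 to 3.97. A q under 0.05 was reached by 1 of them in the FLAG list, on chromosome 11 (9646124 to 9646412, 9 tags), and by none in the SMAD3 list. The site nearest a protein-coding gene among them was 5459 bp from RXRG, which encodes a retinoid X receptor (6 FLAG and 8 SMAD3 tags).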

How the data were processed

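The submitters' processing notes name FastQC 0.11.8, Bowtie2 and the hg38 build, and the peak caller MACS2 2.2.7.1. Per the file headers, the caller ran with paired-end mode off, a p cutoff of 0.0065, at most 1 tag per position, and the larger of ChIP and input scaled to the smaller. For every peak the authors deposited the pileup signal in tags at the summit, the fold enrichment (a ratio, taken here as pileup plus 1 over local background plus 1), and significance as −log10 p and −log10 q. Per the file headers q would be given as a placeholder, but the deposited −log10 q column holds values, which were used as they stand.

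Overlaps, distances and implied backgrounds were computed with Python 3.11.15, numpy 2.4.6, pandas 2.3.3 and scipy 1.17.1, and matplotlib 3.10.9 drew the figures. Overlap counts equalled those of bedtools 2.31.1, and the code recovered the overlaps planted in simulated data. Each FLAG peak was paired with the SMAD3 peak it overlapped most. Gene positions, strands and promoters came from RefSeq tables of GRCh38.p14, whose chromosomes share hg38 coordinates. No genome sequence was used here. With 1 library per antibody, nothing was tested.

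Named sites were the 10 with the highest fold per list (and 1 tied with the last), the 5 with the highest pileup, the largest groups, those in genes, those near a gene with a q under 0.05 in both lists, and pathway genes. Sites, lists and rules were chosen with earlier results of these data known. The highest folds within gene-free stretches, the most unequal site and the RXRG site were picked after values were seen. The limits of the gene-free stretch of chromosome 5 are not reported here.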

Additional observations from a re-analysis of the deposited data

How the results depend on the processing

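The settings for sites within 250 kb of a gene, and for a FLAG background under 5, were chosen after seeing the data. The share of FLAG peaks that were shared was 1.87% with 50% reciprocal overlap, 3.94% with gaps of up to 1 kb, 2.03% with each summit inside the other peak and 3.78% with a q under 0.05 in both lists. The median summit distance was 35 bp with reciprocal overlap, 26.5 bp with the q threshold and 69 bp at a background under 5. The share over 250 kb from a gene was 84.4% with protein-coding genes only, 79.8% at 100 kb and 78.5% with the q threshold. The share with another shared site within 100 kb was 20.7% at 10 kb, 85.1% at 1 Mb and 25.5% at a background under 5. The share with a q under 0.05 in both lists was 14.1% at a −log10 q of 5 or more, 27.9% within 250 kb of a gene and 21.8% at a background under 5. The median FLAG background of 6.56 tags was 14.4 with the q threshold and 4.12 within 250 kb of a gene. The other 11 of 29 alternatives stayed within the interval of the main value, which treats sites as independent. The cause of these moves was not tested. No paired analysis was possible because each antibody has 1 ChIP library. Low tag numbers limit single sites: 27 had under 10 FLAG tags and 53 under 10 SMAD3 tags.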
